A study of Mus musculus with 12 samples.

Results

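The 38 genes described here are the enzymes and transporters of glycolysis together with genes that respond to low oxygen, chosen by symbol from a fixed list. All 38 symbols were found, each at 1 locus, among the 24888 gene entries of every library. The rule for choosing them names symbols and uses no measured value, but the list was drawn up with earlier results of these data known. The 12 RNA-seq libraries come from mouse adipocyte cultures in 6 groups of 2. Of these groups 4 are primary cultures grown from inguinal white fat preadipocytes of the C57BL/6 strain, with the genotype WT (wild type) or ATF7KO (KO here). Each genotype was differentiated under rosiglitazone, which gave the cultures labelled beige, and without rosiglitazone, which gave those labelled white. Cells of the mouse mesenchymal line C3H10T1/2 were differentiated with rosiglitazone only, as a control or with ATF7 overexpressed. Rosiglitazone activates PPARγ, the nuclear receptor that drives fat cell differentiation, and ATF7 is a transcription factor of the ATF2 family. The labels used here leave out how the knockout and the overexpression were made, and the sex and age of the animals. They do not say either that the 2 replicates of a group came from different cultures or mice, and the p-values therefore measure only the spread between these libraries, which may be technical.

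Glycolysis splits glucose into pyruvate. Hexokinase and phosphofructokinase catalyse its committed early steps, lactate dehydrogenase turns pyruvate into lactate, and monocarboxylate transporters carry lactate and pyruvate across membranes. Many of these genes are induced when oxygen is short: the prolyl hydroxylases then work less, the factor HIF1α is no longer degraded, and it binds hypoxia response elements whose core is ACGTG or GCGTG. In fat cells glucose also supplies glycerol phosphate and acetyl-CoA for stored lipid, and thermogenic adipocytes are known for high glucose uptake.

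Values are FPKM, fragments scaled to gene length and to the fragments of the library, so levels can be set side by side between genes. Summed over all entries, a library held between 225536 and 272371 FPKM, and between 9844 and 10877 entries reached 1 FPKM. Atf7, the targeted gene, stood at 7.80 and 7.83 FPKM in WT beige, 7.26 and 7.94 in KO beige, 9.10 and 7.10 in WT white and 6.88 and 7.73 in KO white. These groups overlap or nearly touch, so the gene's level does not check the knockout labels, and the KO directions below rest on the labels alone. In C3H10T1/2 cells Atf7 was at 8.52 and 9.09 FPKM in the controls and at 41.2 and 39.1 in the overexpressing libraries. All 10 adipocyte markers examined reached 1 FPKM in every library. The summed level of 12 macrophage markers was 25.0 to 29.8 FPKM in the primary beige libraries, 498 to 541 in WT white, 716 to 763 in KO white and 1.74 to 2.33 in C3H10T1/2. The summed level of 10 stromal progenitor markers, fibroblast-like precursors of fat cells, was 389 to 529 FPKM in primary beige and 2040 to 2576 in white libraries. In such bulk samples fewer cells of a type and less RNA per cell cannot be told apart.

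Promoter sequence is shown for a few genes as a description, and what regulates the set was not tested. RefSeq promoter windows (GRCm38.p6) were matched for 36 of the 38 genes, Bnip3l and Ndrg1 having none in the table, and the 250 bases before the start of transcription were searched on both strands for the cores ACGTG and GCGTG, for the E-box CACGTG, which contains ACGTG, and for TGACGTCA, the full cAMP response element bound by ATF and CREB proteins. ACGTG occurred in 19 of the 36 windows (52.8%) and in 16.6% of all 32851 windows of this length. GCGTG occurred in 18 (50.0%) against 28.2%, either core in 27 (75.0%) against 38.6%, and CACGTG in 5 (13.9%) against 6.02%. TGACGTCA occurred in 1 member window, that of Ldha (2.78%), and in 1.55% of all windows. The windows differ in base composition, from 36.4% G and C in Pfkm to 86.0% in Egln1, and a match is only a description of the letters. Many of the 38 genes were listed for their response to low oxygen, so a higher share of these cores may come with that choice. Each member counts with 1 window, while all windows hold several for some genes, and their base composition was not compared. In the lines that follow, ACGTG or GCGTG on either strand is in capitals and each sequence runs 5′ to 3′ on the gene's strand. Egln3 had the largest beige excess in WT cultures, Ldha had the most ACGTG matches, Bnip3 had the most marked runs, Ankrd37 was listed at 0 in white cultures, Slc16a1 had the lowest p of the set in the KO against WT beige comparison, and Gbe1 had none of the cores.
Egln3, chr12:54203875-54204124 (minus strand): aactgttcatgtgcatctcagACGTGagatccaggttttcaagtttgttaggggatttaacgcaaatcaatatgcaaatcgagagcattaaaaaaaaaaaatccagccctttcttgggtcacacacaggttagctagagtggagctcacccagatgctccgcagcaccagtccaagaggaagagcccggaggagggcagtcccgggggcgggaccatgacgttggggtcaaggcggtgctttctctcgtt
Ldha, chr7:46845554-46845803 (plus strand): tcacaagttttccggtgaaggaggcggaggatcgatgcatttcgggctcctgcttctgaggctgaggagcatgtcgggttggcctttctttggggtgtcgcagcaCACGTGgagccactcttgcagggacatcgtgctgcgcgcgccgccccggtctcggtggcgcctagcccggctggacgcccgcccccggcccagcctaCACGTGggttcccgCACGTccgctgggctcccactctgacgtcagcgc
Bnip3, chr7:138909507-138909756 (minus strand): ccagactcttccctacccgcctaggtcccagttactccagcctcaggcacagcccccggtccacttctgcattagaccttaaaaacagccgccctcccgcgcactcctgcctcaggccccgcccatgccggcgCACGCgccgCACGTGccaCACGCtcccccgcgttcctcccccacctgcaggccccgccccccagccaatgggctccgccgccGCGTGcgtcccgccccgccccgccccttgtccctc
Ankrd37, chr8:45999851-46000100 (minus strand): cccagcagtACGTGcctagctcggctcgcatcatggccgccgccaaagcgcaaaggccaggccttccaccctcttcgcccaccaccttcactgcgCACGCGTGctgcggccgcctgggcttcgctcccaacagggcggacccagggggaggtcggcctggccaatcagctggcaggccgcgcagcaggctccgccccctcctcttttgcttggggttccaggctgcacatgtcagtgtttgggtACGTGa
Slc16a1, chr3:104638414-104638663 (plus strand): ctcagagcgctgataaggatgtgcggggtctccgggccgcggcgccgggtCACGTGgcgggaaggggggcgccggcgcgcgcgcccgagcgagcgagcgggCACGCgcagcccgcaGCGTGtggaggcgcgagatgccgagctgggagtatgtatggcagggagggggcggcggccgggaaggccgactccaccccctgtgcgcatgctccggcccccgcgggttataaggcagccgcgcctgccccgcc
Gbe1, chr16:70313699-70313948 (plus strand): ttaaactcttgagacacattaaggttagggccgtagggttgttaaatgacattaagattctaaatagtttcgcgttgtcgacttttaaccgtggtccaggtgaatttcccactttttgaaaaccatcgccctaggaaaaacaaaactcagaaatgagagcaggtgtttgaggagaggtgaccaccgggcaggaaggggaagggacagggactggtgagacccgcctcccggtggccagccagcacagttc

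Levels within the set spanned several orders of magnitude. Aldoa, the aldolase that splits fructose bisphosphate, was the most abundant member in every library, at 494 to 1669 FPKM. Ldha, the muscle-type lactate dehydrogenase subunit, followed at 157 to 532 FPKM in WT and KO cultures and at 192 to 310.0 in C3H10T1/2. Hif3a, a HIF subunit related to HIF1α, was at most 0.201 FPKM and never reached the filter of 1 FPKM in 2 libraries. Aldoc, Slc16a3 and Ankrd37 stayed under that filter in C3H10T1/2. The 38 genes together held 2.11% and 1.98% of all FPKM in WT beige, 2.02% and 1.57% in KO beige, 0.734% and 0.610% in WT white, 0.699% and 0.876% in KO white, and 0.759% to 1.02% in C3H10T1/2. The primary beige libraries were thus apart from the other 8, and C3H10T1/2 libraries, also given rosiglitazone, lay within or slightly above the range of the white ones.

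**Figure D1:**
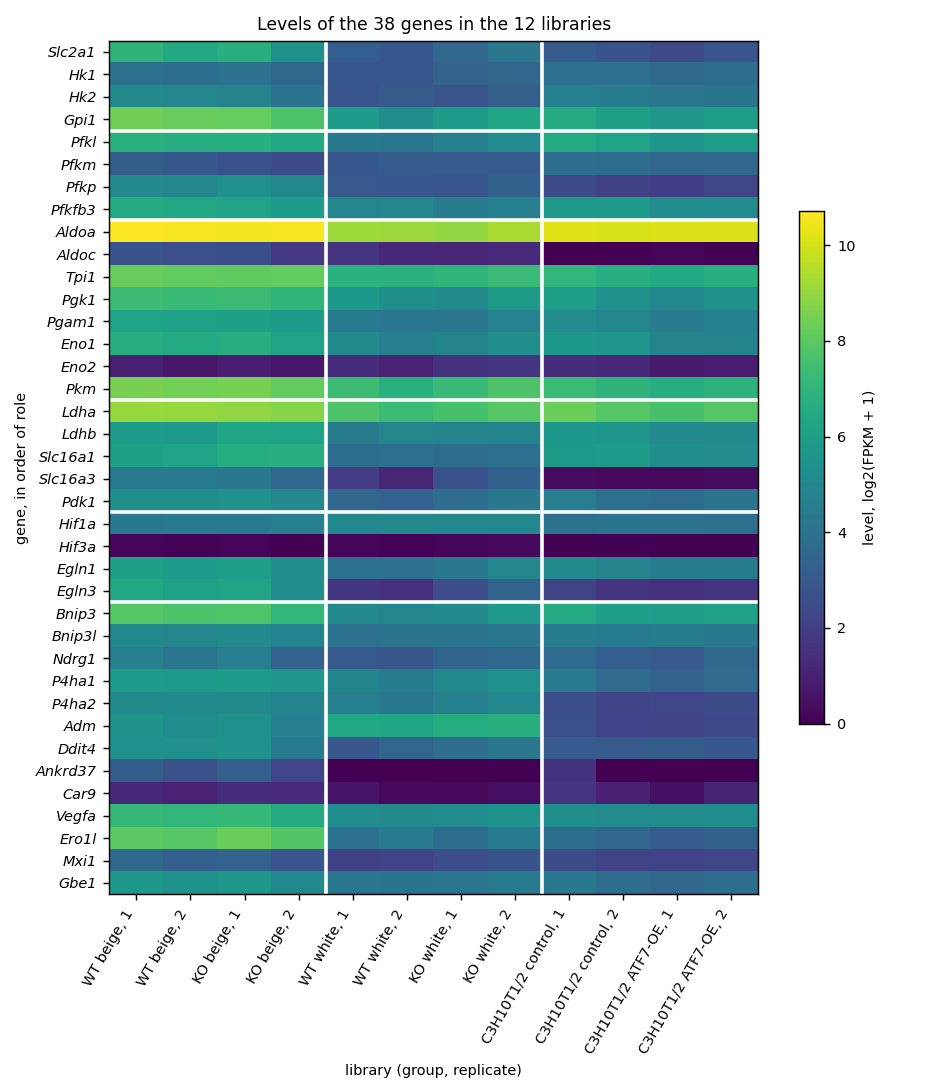
Levels of the 38 genes (rows, ordered by role and separated by white lines) in the 12 libraries (columns), as log2(FPKM + 1) on a colour scale. The 4 primary beige libraries are brighter than the white ones for most genes, Hif1a and Adm being darker, and KO beige replicate 2 is darker than replicate 1 for genes such as Slc2a1 (43.8 against 106 FPKM).

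The 2 libraries of a group differed most for this set in KO beige, KO white and the C3H10T1/2 control. In KO beige, 32 of the 36 members that reached 1 FPKM in both libraries were higher in replicate 1, against 30.9% of all 9673 such entries. The median difference of the members was 0.39 on the log2 scale, and that of all such entries -0.10. Members at least 0.5 apart numbered 14 there, against 3.86% of all entries. The glucose transporter gene Slc2a1 was at 106 and 43.8 FPKM, Egln3 at 74.3 and 37.1, Ddit4 at 42.5 and 19.5 and Ndrg1 at 23.1 and 9.45. In KO white the gap ran the other way: all 35 such members were higher in replicate 2, while 41.3% of entries were higher in replicate 1. The median of the members was -0.39 for replicate 1 minus replicate 2. At least 0.5 apart were 11 members, against 1.21% of all entries. Slc2a1 was at 11.1 and 17.7 FPKM there and Egln3 at 4.80 and 9.48. Bnip3, Egln1, Egln3, Slc16a3 and Slc2a1 were at least 0.5 apart in both KO groups, which is 35.7% of the KO beige and 45.5% of the KO white genes so counted. With 14 of 36 and 11 of 35 members so counted, some overlap would arise without any link between the groups. The matching overlap over all entries was not computed, so these 5 are not set apart as a common core. In the C3H10T1/2 control 29 of 33 members were higher in replicate 1, against 48.9% of entries. The median of the members was 0.34 there, with 7 at least 0.5 apart against 0.815% of entries. The medians in WT beige (0.12), WT white (0.07) and ATF7 overexpression (-0.15) were nearer 0. In WT beige 32 of 36 members were likewise higher in replicate 1, against 53.8% of entries. None was 0.5 or more apart there, against 1.12% of entries. WT white had 5 of 35 that far apart (Ddit4, Eno1, Gpi1, Pkm and Slc16a3), against 3.90%, and ATF7 overexpression 2 of 32, against 1.39%. With ATF7 overexpression 24 of the 32 members were higher in replicate 2, while 61.6% of entries were higher in replicate 1. The set thus ran against the other entries there too, by a smaller amount. In WT white 22 of 35 members were higher in replicate 1, against 45% of entries. Hif1a and Slc16a1 did not follow the gap in KO beige, at 19.98 and 24.0 FPKM and at 98.9 and 103. Nor did the glycolytic genes Aldoa, at 1463 and 1492 FPKM, and Tpi1, at 272 and 282. Beside it, the adipocyte marker sum was 11270 and 12653 FPKM and the stromal sum 389 and 529 in KO beige replicates 1 and 2, and 3731 and 3782 and 2204 and 2357 in KO white. Their part in the gap was not tested. Medians of the set and some calls that rest on these libraries are given below with and without them. The differences of most single genes are given with all libraries only.

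**Figure D2:**
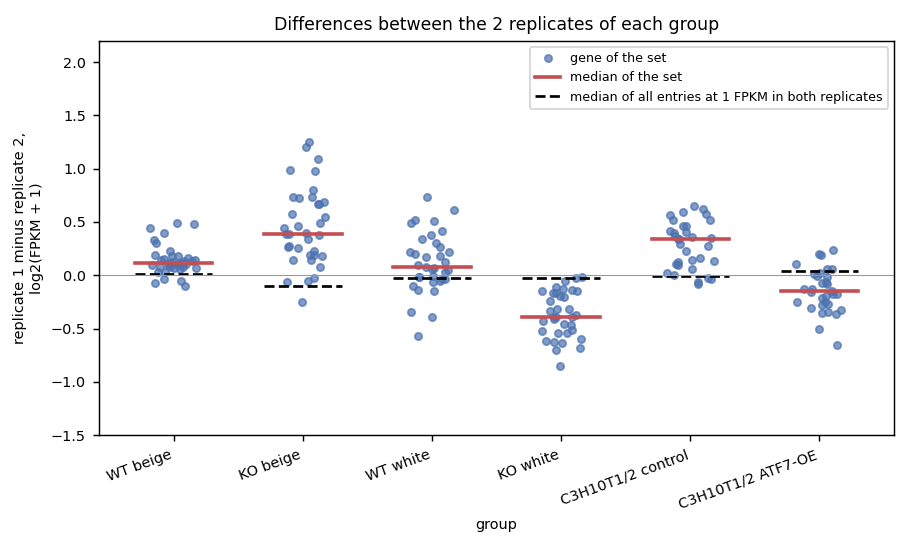
Difference between replicates 1 and 2 on the log2(FPKM + 1) scale (vertical axis) for each gene of the set at 1 FPKM or more in both libraries, by group. Red lines are the medians of the set and dashed lines those of all entries; the set's median is 0.39 in KO beige and -0.39 in KO white, where the dashed lines lie near 0.

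Beige against white WT cultures asks how the set differs between cells differentiated with and without rosiglitazone. Of the 37 members tested, 33 were higher and 2 lower in WT beige at a limma adjusted p under 0.05, while 21.6% of all 11294 entries were called higher and 32.1% lower. The median difference of the members was 1.54 on the log2(FPKM + 1) scale, on which all differences below are given and which understates those of low genes, and the median over all entries was -0.10. As a ratio of mean FPKM, Egln3 was 37.2-fold, Slc2a1 14.4-fold, Ero1l 13.8-fold, Aldoa 2.90-fold and Ldha 2.83-fold higher in WT beige. The WT beige and WT white libraries did not overlap for 33 members in the higher direction and 3 in the lower, against 31.3% and 46.2% of entries. The stromal and macrophage sums given above were lower in the beige libraries, and the adipocyte marker sum was higher (12201 and 11618 FPKM against 4760 and 5509). Of the 10 adipocyte markers 6 were called higher, 1 lower and 3 not called, beside 21.6% and 32.1% of all entries called higher and lower. The part of these 3 marker lists in the differences of the set was not tested.

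At the entry of glucose, all 4 members were higher in WT beige. Slc2a1, which encodes the transporter GLUT1, was at 125 and 89.2 FPKM in WT beige and at 8.12 and 6.81 in WT white. The groups were far apart, with a difference of 3.66 ± 0.37 (SE, adjusted p = 5.49e-05). Hk2, the inducible hexokinase bound to mitochondria, was at 33.8 and 30.4 FPKM against 6.36 and 7.17, a difference of 2.09 ± 0.22 (adjusted p = 7.3e-05). Hk1, the broadly expressed hexokinase, differed less, at 15.2 and 13.7 FPKM against 6.52 and 6.599 (1.03 ± 0.13, adjusted p = 0.000237). Gpi1, glucose-6-phosphate isomerase, was at 332 and 293 FPKM against 59.8 and 38.7 (2.67 ± 0.25, adjusted p = 3.07e-05). None of these groups overlapped.

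At the phosphofructokinase step 3 of 4 members were higher. The liver-type subunit Pfkl was at 109 and 102 FPKM in WT beige and at 18.6 and 17.7 in WT white (2.48 ± 0.17, adjusted p = 6.07e-06). The platelet-type subunit Pfkp was at 33.0 and 30.6 against 6.89 and 6.58 FPKM (2.08 ± 0.17, adjusted p = 1.34e-05). The muscle-type subunit Pfkm was level, at 7.83 and 6.77 against 6.78 and 7.57 FPKM, with overlapping groups and a difference of 0.02 ± 0.11 (adjusted p = 0.896). Pfkfb3 makes fructose 2,6-bisphosphate, the activator of phosphofructokinase. It was at 91.3 and 83.3 FPKM against 28.7 and 30.1 (1.54 ± 0.12, adjusted p = 1.26e-05).

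From aldolase to pyruvate kinase 7 of 8 members were higher, with differences of 1.28 to 1.89. Aldoa was at 1669 and 1512 FPKM in WT beige and at 554 and 541 in WT white (1.53 ± 0.15, adjusted p = 4.95e-05). Pgam1, phosphoglycerate mutase, had the largest difference of the 8, at 74.0 and 69.3 against 19.96 and 17.2 FPKM (1.89 ± 0.17, adjusted p = 2.76e-05). Pgk1, phosphoglycerate kinase, was at 161 and 149 against 51.6 and 39.5 FPKM (1.76 ± 0.22), and Pkm, pyruvate kinase, at 366 and 342 against 159 and 111 (1.40 ± 0.22). Eno1, the common enolase, was at 99.8 and 92.0 FPKM against 32.8 and 22.6 (1.78 ± 0.23, adjusted p = 0.000237). Eno2, the neuronal enolase, pointed the other way without passing the test, at 0.953 and 0.630 against 1.60 and 1.06 FPKM (-0.38 ± 0.15, adjusted p = 0.0633). Eno1 overlaps the entry of its near-identical copy Eno1b, and Aldoa, Tpi1, Pgk1, Pgam1, Pkm and Ldha also have processed copies in the mouse genome, so their absolute levels depend on how shared reads were assigned.

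All 5 members around lactate and pyruvate were higher in WT beige. Slc16a1, which encodes the monocarboxylate transporter MCT1, was at 67.0 and 70.7 FPKM in WT beige and at 13.7 and 14.0 in WT white. Its difference of 2.23 ± 0.09 had the lowest adjusted p of the set in this comparison (7.94e-07). Slc16a3, which encodes the lactate exporter MCT4, was at 19.98 and 20.7 against 2.65 and 1.20 FPKM (2.91 ± 0.30, adjusted p = 5.51e-05). Ldha was at 532 and 509.8 FPKM against 210.1 and 157 (1.51 ± 0.17), and Ldhb, the heart-type subunit, at 57.8 and 54.9 against 21.8 and 28.0 (1.16 ± 0.12). Pdk1, the kinase that switches off pyruvate dehydrogenase, was at 39.7 and 39.0 against 10.6 and 9.23 FPKM (1.89 ± 0.17, adjusted p = 2.88e-05).

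Among the oxygen-sensing genes the hydroxylases and Hif1a moved in opposite directions. Egln3, which encodes the prolyl hydroxylase PHD3, was at 85.5 and 69.0 FPKM in WT beige and at 2.31 and 1.84 in WT white, the largest difference of the set (4.67 ± 0.34, adjusted p = 8.41e-06). Egln1, which encodes PHD2, was at 64.3 and 58.7 against 15.3 and 15.5 FPKM (1.93 ± 0.25, adjusted p = 0.000218). Hif1a itself was lower, at 18.7 and 20.2 against 30.8 and 31.5 FPKM (-0.65 ± 0.11, adjusted p = 0.000919). It fell without overlap, as did the angiogenic peptide gene Adm, at 44.96 and 35.6 against 84.8 and 77.9 FPKM (-1.005 ± 0.22, adjusted p = 0.00429).

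Of the 13 further hypoxia-induced members, Adm was the exception and the other 12 were higher. Ero1l, the oxidase of the endoplasmic reticulum that RefSeq calls Ero1a, was at 255 and 243 FPKM in WT beige and at 15.4 and 20.6 in WT white (3.73 ± 0.22, adjusted p = 3.26e-06). Bnip3, a mitochondrial protein that drives mitophagy, was at 236 and 207 against 33.1 and 29.2 FPKM (2.79 ± 0.25, adjusted p = 2.87e-05), while its relative Bnip3l was at 30.6 and 28.9 against 15.4 and 16.5 (0.86 ± 0.10, adjusted p = 0.000144). Ankrd37 was listed at 0 in both WT white libraries and at 7.94 and 5.36 FPKM in WT beige. It passed the filter through beige libraries alone, as did Car9, the membrane carbonic anhydrase, at 1.29 and 1.09 against 0.509 and 0.216 FPKM, so these 2 could enter the test only with beige the higher. Vegfa, the vascular growth factor, was at 140.3 and 129.7 against 35.9 and 33.6 FPKM (1.93 ± 0.18, adjusted p = 3.22e-05). Ddit4, an inhibitor of mTORC1 signalling, was at 40.8 and 39.9 against 6.56 and 10.2 FPKM (2.16 ± 0.32, adjusted p = 0.000544). Ndrg1 (1.504), Gbe1 (1.40), the glycogen branching enzyme, Mxi1 (1.39), a MAX-binding antagonist of MYC, and P4ha1 (1.13) and P4ha2 (0.64), subunits of collagen prolyl hydroxylase, were also higher. The P4ha2 call was lost without WT white replicate 2 (adjusted p = 0.0536), and the other 34 calls held in all 12 alternatives run.

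**Figure D3:**
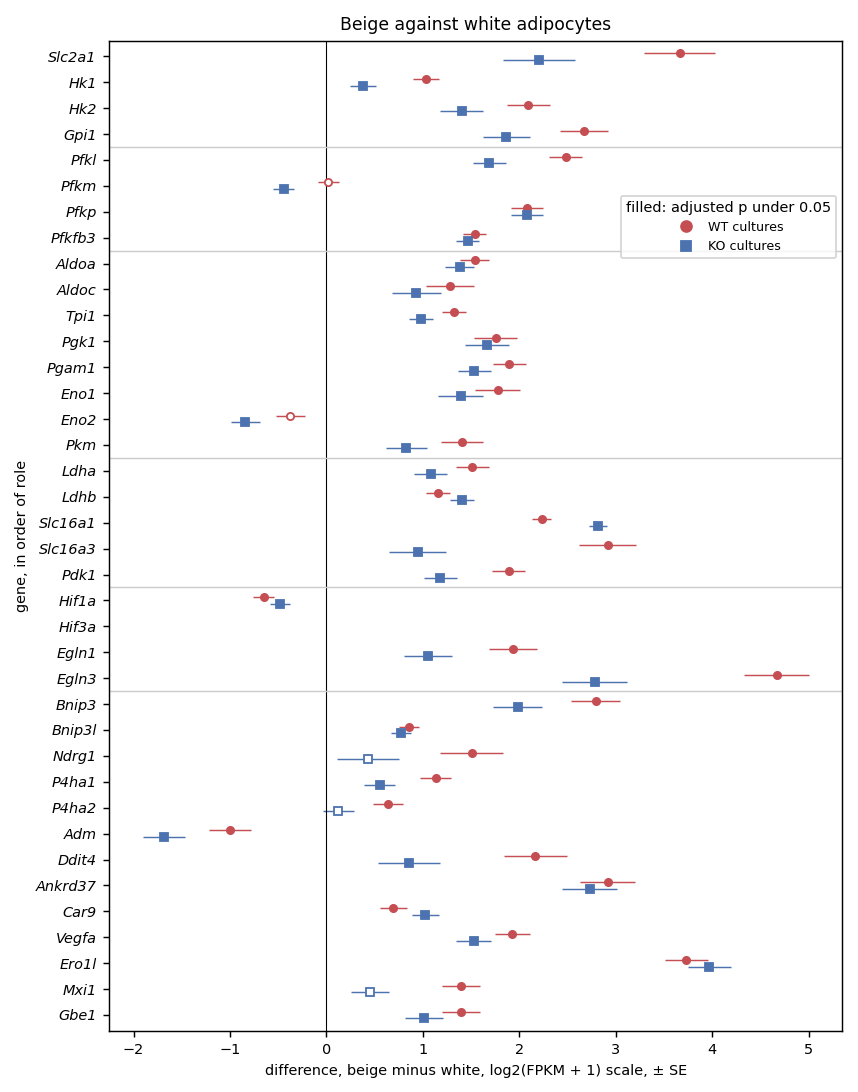
Beige minus white difference for each gene on the log2(FPKM + 1) scale (horizontal axis, ± SE) in WT (red circles) and KO cultures (blue squares), filled where the limma adjusted p is under 0.05. WT differences run from -1.005 (Adm) to 4.67 (Egln3), and only Hif1a, Adm, Eno2 and, in KO, Pfkm lie below 0; Hif3a was not tested.

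KO cultures put the same question with 4 other libraries. In KO beige against KO white 30 of 37 members were higher and 4 lower, with 26.6% and 34.3% of all entries called in these directions. The median difference was 1.08, and 1.60 without KO beige replicate 2 and KO white replicate 2, an alternative chosen after seeing the data. Ero1l led, at 315 and 231 FPKM in KO beige and 13.1 and 20.3 in KO white (3.97 ± 0.22, adjusted p = 1.42e-06). Slc16a1 came next, at 98.9 and 103 against 12.8 and 14.2 FPKM (2.82 ± 0.09, adjusted p = 1.63e-07). Egln3 was at 74.3 and 37.1 against 4.80 and 9.48 FPKM (2.78 ± 0.34, adjusted p = 0.000115), with Slc2a1 at 106 and 43.8 against 11.1 and 17.7 (2.203 ± 0.37, adjusted p = 0.000862). The KO beige libraries lay above both KO white ones for each of these 4 genes. Ankrd37 was at 8.32 and 3.70 FPKM and again listed at 0 in white.

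The 4 lower members in KO beige were Adm, Eno2, Hif1a and Pfkm. Adm was at 40.6 and 24.0 FPKM in KO beige and at 97.9 and 108 in KO white (-1.69 ± 0.22, adjusted p = 0.000168). Hif1a was at 19.98 and 24.0 against 30.8 and 31.3 FPKM (-0.48 ± 0.11, adjusted p = 0.004). Pfkm was at 5.49 and 4.69 against 7.11 and 7.44 FPKM (-0.45 ± 0.11, adjusted p = 0.00752), with Eno2 at 0.827 and 0.601 against 1.94 and 2.204 (-0.84 ± 0.15, adjusted p = 0.00122); both calls were lost without the second replicates of KO beige and KO white (adjusted p = 0.145 and 0.0519). Eno2 passed the filter of the primary fit through white libraries alone. It could therefore enter both beige against white tests only with white the higher. Ndrg1 (0.43, adjusted p = 0.279), Mxi1 (0.45, adjusted p = 0.0754) and P4ha2 (0.12, adjusted p = 0.515) did not pass. Of the 34 calls 26 held in all 13 alternatives. Slc16a3 (0.95), Aldoc (0.93), Ddit4 (0.85), Pkm (0.83), P4ha1 (0.55) and Hk1 (0.37) each lost the call without KO beige replicate 1 and without KO white replicate 1, with adjusted p up to 0.32 for Ddit4. The Ddit4 call was lost in 8 of the 13 alternatives and that of Hk1 in 6, among them no filter and leaving out KO white replicate 2. With quantile normalization Ddit4, Hk1, Pkm (0.48) and P4ha1 (0.27) all lost the call.

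Knockout against wild type in beige cultures called none of the 37 members, with 0.151% of all entries called. At an unadjusted p under 0.05 there were 5 members, where 10.3% of entries passed. Slc16a1 had the lowest adjusted p (0.123), at 98.9 and 103 FPKM in KO beige and 67.0 and 70.7 in WT beige, a difference of 0.55 ± 0.09 with groups that do not overlap, and it was called when all 12 libraries were fitted together (adjusted p = 0.0431). Ldhb was also without overlap on the higher side, at 76.4 and 72.5 against 57.8 and 54.9 FPKM (0.39 ± 0.12, adjusted p = 0.354). Pfkm (-0.45 ± 0.11, adjusted p = 0.256), Pfkfb3 (-0.41 ± 0.12, adjusted p = 0.331) and Hk2 (-0.61 ± 0.22, adjusted p = 0.422) lay below WT in both libraries. Pfkfb3 was at 71.9 and 59.6 FPKM against 91.3 and 83.3, and Hk2 at 26.9 and 15.8 against 33.8 and 30.4. The median of the 37 differences was -0.19, with 31 below 0, and it was 0.03 without KO beige replicate 2, the library in which most of the set was low. Groups did not overlap for 3 members on the higher side and 9 on the lower, against 27.1% and 14.1% of entries.

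The same comparison in white cultures called 1 member, Slc16a3, with 1.27% of all entries called higher and 0.620% lower. Slc16a3 was at 5.50 and 8.96 FPKM in KO white and at 2.65 and 1.20 in WT white. The groups did not overlap and differed by 1.51 ± 0.30 (adjusted p = 0.0442). This call was lost in 6 of 12 alternatives, among them leaving out either KO white library or WT white replicate 2, where the adjusted p was between 0.0839 and 0.305. Egln3 was at 4.80 and 9.48 against 2.31 and 1.84 FPKM (1.35 ± 0.34, adjusted p = 0.0856). Pfkl was at 23.8 and 35.0 against 18.6 and 17.7 FPKM (0.64 ± 0.17, adjusted p = 0.0925), Hk1 at 9.36 and 10.5 against 6.52 and 6.599 (0.53 ± 0.13, adjusted p = 0.0881) and Pdk1 at 13.2 and 18.5 against 10.6 and 9.23 (0.61 ± 0.17, adjusted p = 0.109). P4ha1 was at 30.9 and 40.9 against 27.7 and 22.3 FPKM (0.50 ± 0.16, adjusted p = 0.141). With all 12 libraries in 1 fit Hk1 (adjusted p = 0.0349) and Egln3 (0.0495) were called as well.

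Over the 37 members the KO minus WT median in white cultures was 0.25, with 29 above 0, and 11 passed an unadjusted p under 0.05 against 19.9% of entries. Leaving out 1 library moved that median between 0.11 (without KO white replicate 2) and 0.45 (without KO white replicate 1). For 16 members both KO libraries lay above both WT ones and for 1 below, against 32.1% and 21.2% of entries. Slc16a1 (12.8 and 14.2 against 13.7 and 14.0 FPKM) and Hif1a (30.8 and 31.3 against 30.8 and 31.5) overlapped between the genotypes. All 12 macrophage markers were above WT white in KO white, with a median of 0.73 and sums of 716 and 763 against 541 and 498 FPKM. Of these 5 were called higher, against 1.27% of all entries. The adipocyte marker sum was 3731 and 3782 in KO white and 4760 and 5509 FPKM in WT white. All 10 adipocyte markers were below WT white in KO white, with a median of -0.27. Of these 1 was called lower (Cidec, -0.73, limma adjusted p = 0.023), against 0.62% of all entries. The part of these markers in the differences of the set was not tested.

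The difference between the genotype effects in beige and in white was tested as an interaction. None of the 37 members passed, 15 did so at an unadjusted p under 0.05, and 0.292% of all entries passed with adjustment against 16.8% without. The median interaction was -0.46, with 32 members below 0, and -0.15 without the second replicates of KO beige and KO white. Slc16a3 had the lowest adjusted p, with -1.97 ± 0.42 (0.13, and 0.0498 with all 12 libraries in 1 fit), followed by Slc16a1, which had the opposite sign at 0.58 ± 0.13 (0.147). Egln3 had -1.88 ± 0.48 (0.162), Hk1 -0.66 ± 0.19 (0.185), and Mxi1 and Pfkl -0.94 ± 0.28 and -0.79 ± 0.24 (both 0.189).

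**Figure D4:**
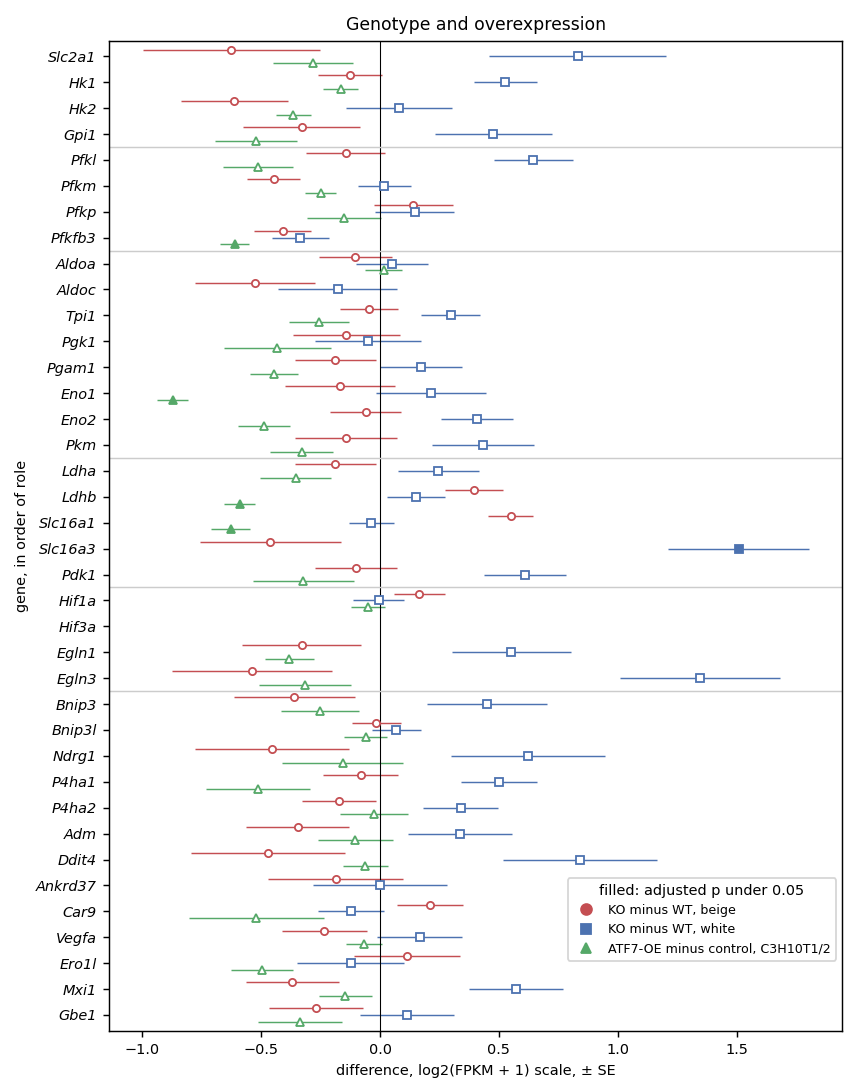
KO minus WT difference in beige (red circles) and white cultures (blue squares), and ATF7 overexpression minus control in C3H10T1/2 (green triangles), on the log2(FPKM + 1) scale (horizontal axis, ± SE), filled where the limma adjusted p is under 0.05. The filled points are Slc16a3 in white (1.51) and Eno1, Slc16a1, Pfkfb3 and Ldhb in C3H10T1/2 (-0.87 to -0.59).

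ATF7 overexpression in C3H10T1/2 cells was tested against its control on 34 members, of which 4 were lower and none higher, with 1.06% and 0.431% of all 9981 entries called lower and higher. Eno1 was at 26.4 and 26.6 FPKM with overexpression and at 51.1 and 47.7 in the control, a difference of -0.87 ± 0.07 (adjusted p = 0.00532). Pfkfb3 was at 36.8 and 35.3 against 54.96 and 56.2 FPKM (-0.61 ± 0.06, adjusted p = 0.0143). Ldhb was at 32.4 and 34.2 against 51.7 and 49.5 FPKM (-0.59 ± 0.07, adjusted p = 0.0163), with Slc16a1 at 39.3 and 34.4 against 55.8 and 58.9 (-0.63 ± 0.08, adjusted p = 0.0286). The 2 groups were clear of each other for all 4 genes. Next in order of p came Hk2, at 17.9 and 17.1 against 24.0 and 21.8 FPKM (-0.36 ± 0.07, adjusted p = 0.0833), followed by Pgam1, at 22.2 and 25.1 against 35.3 and 29.99 (-0.45 ± 0.10, adjusted p = 0.102). Unadjusted, 13 members and 17.2% of entries passed.

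The other members of the set were close to or below their control in C3H10T1/2. The median of the 34 differences was -0.33, with all but Aldoa (0.01) below 0, while the median over all entries was -0.02. Eno2, among the 34, passed the filter through the controls alone, at 0.702 and 0.772 FPKM with overexpression against 1.56 and 1.32. For 16 members both overexpressing libraries lay below both controls and for none above, against 28.8% and 20.3% of entries. C3H10T1/2 control replicate 1, in which most of the set was high, carried part of this: without it the median was -0.12, and without control replicate 2 it was -0.51 with 8 members called. Without overexpression replicate 1 none was called and without overexpression replicate 2 only 1, so no call held in every alternative. The 4 called genes differed little between the control libraries, at most by 0.10 on the log2 scale (Eno1), whereas the hypoxia-induced Bnip3 was at 93.8 and 65.0 and Ankrd37 at 1.93 and 0. Among the 13 further hypoxia-induced members 12 were tested and none called, with differences from -0.52 (Car9) to -0.02 (P4ha2).

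Set beside the primary beige cultures, which were differentiated with the same agent, the C3H10T1/2 control differed in which members were abundant. These are other cells, and the levels are a description without a test. Ero1l was at 13.6 and 10.4 FPKM against 255 and 243 in WT beige, Egln3 at 3.57 and 2.02 against 85.5 and 69.0, and Slc2a1 at 7.79 and 5.64 against 125 and 89.2. Those C3H10T1/2 values lay near the WT white ones (15.4 and 20.6, 2.31 and 1.84, and 8.12 and 6.81 FPKM). By contrast Pfkl (91.7 and 71.1 FPKM), Hk1 (14.0 and 14.2), Ldhb (51.7 and 49.5) and Slc16a1 (55.8 and 58.9) were near the WT beige levels. Slc16a3 was at 0.209 to 0.255 FPKM and Aldoc was listed at 0.

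Isozyme shares show which member of an enzyme family carried the difference. Egln3 made up 57.1% and 54.0% of the summed FPKM of Egln1 and Egln3 in WT beige but 13.1% and 10.7% in WT white, with KO white between them at 20.7% and 24.7%. Hk2 made up 69.0% of the summed Hk1 and Hk2 in each WT beige library and 49.4% and 52.1% in WT white. In KO beige its share was 64.0% and 58.2%, and in KO white 39.7% and 44.5%, so both KO groups lay below the WT group of the same kind. In white cultures the Hk2 level itself overlapped between genotypes, at 6.16 and 8.39 FPKM in KO and 6.36 and 7.17 in WT. Hk1 was higher there in KO, at 9.36 and 10.5 FPKM against 6.52 and 6.599. In KO beige Hk2 was at 26.9 and 15.8 FPKM, so its level was lowest in replicate 2. Pfkm held 5.22% and 4.86% of phosphofructokinase in WT beige against 21.1% and 23.8% in WT white, and Pfkp held 22.0% in each WT beige library but 3.64% to 4.82% in C3H10T1/2. Ldhb held 9.81% and 9.73% of lactate dehydrogenase in WT beige and 13.7% and 14.3% in KO beige; in white the groups overlapped (9.39% and 15.1% in WT, 12.6% and 10.2% in KO). Aldoa held at least 99.6% of the summed Aldoa and Aldoc, and Eno1 at least 93.2% of the summed Eno1 and Eno2, in every library. No test was run on these shares.

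**Figure D5:**
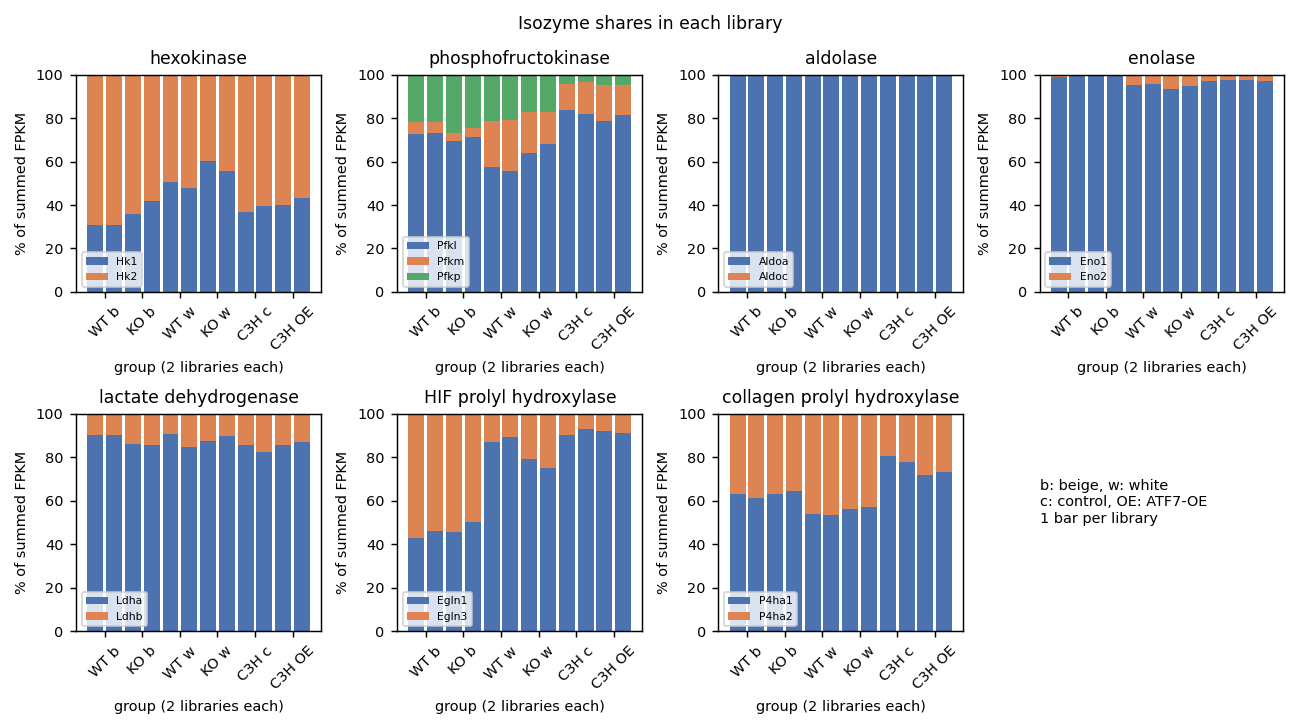
Share of each isozyme in the summed FPKM of the members of its family in this set (vertical axis, %) in each of the 12 libraries. Bars are 2 per group, where b is beige, w is white and c is control. Egln3 takes 54.0% and 57.1% of the hydroxylase pair in WT beige but 10.7% and 13.1% in WT white, while Aldoa fills nearly all of every aldolase bar.

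Other genes of the same pathways, from lists fixed by function, did not all follow. The counts stand beside 21.6% of all entries called higher and 32.1% called lower in WT beige against WT white. Lists of 8 tested genes or fewer are too short to be set apart from those shares. Of 13 genes for the entry of pyruvate into mitochondria, 9 were higher and 2 lower in WT beige than in WT white. Pdk4, a further pyruvate dehydrogenase kinase, was at 57.3 and 59.2 against 5.54 and 6.79 FPKM (3.05, adjusted p = 3.8e-07). Pdhb, a subunit of that dehydrogenase, was at 143 and 131 against 42.7 and 44.8 (1.62, adjusted p = 3.44e-06). Of 24 other hypoxia-induced genes 16 were higher, such as Ak4, an adenylate kinase of mitochondria, at 14.3 and 12.2 against 0.997 and 0.653 FPKM (2.97, adjusted p = 3.88e-05). Lower were 3, among them the collagen-modifying genes Plod2 (-1.13, adjusted p = 2.04e-05) and Lox (-1.33, adjusted p = 2.87e-05). Glycogen genes were mixed, with 8 higher and 4 lower of 15 tested; Gys1, muscle-type glycogen synthase, was at 58.8 and 52.6 against 11.97 and 10.9 FPKM (2.19, adjusted p = 1.26e-05). Of 8 other glycolytic genes tested 2 were higher, including Gapdh (1.92, adjusted p = 0.000118), and 3 lower. The insulin-responsive transporter gene Slc2a4 was higher (1.64, adjusted p = 3.56e-06), as was Slc2a3 (1.78, adjusted p = 0.00223), and the other 2 glucose transporter genes did not pass. Of 7 pentose phosphate genes 2 were higher (Pgls 0.72 and Taldo1 0.55), and of 8 genes of the HIF machinery 3 were higher and 2 lower, the latter including Cited2, an inhibitor of HIF1α coactivation (-0.78, adjusted p = 0.000163).

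In the genotype and overexpression comparisons few of these further genes passed. KO beige against WT beige called none of the 79 tested with limma, and 0.151% of all entries. An unadjusted p under 0.05 was reached by 10 of the 79, against 10.3% of all entries. Of all entries, 1.27% were called higher and 0.62% lower in KO white, and 0.431% higher and 1.06% lower with overexpression. In KO white, Gys1 was higher at 19.5 and 26.7 against 11.97 and 10.9 FPKM (0.94, adjusted p = 0.0367). Tkt, the transketolase of the pentose phosphate pathway, was higher too, at 86.0 and 100.3 against 61.2 and 64.3 (0.56, adjusted p = 0.0418). With ATF7 overexpression Pdk4 was lower, at 54.3 and 52.9 against 76.8 and 77.1 FPKM (-0.51, adjusted p = 0.0182).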

How the data were processed

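RNA was extracted with TRIZOL, depleted of ribosomal RNA, made into directional libraries and sequenced as pairs of 36 bases, per the labels' protocols. The authors deposited 1 table per library with FPKM values for 24888 gene entries on mm10 (GRCm38, per the submitters' processing notes). No source used here names the aligner, quantifier, gene annotation or filters, or says whether counting used strand. Strand bears on members that overlap another entry (Hk1, Pfkm, Pfkp, Tpi1, Eno1, Pdk1 and Ankrd37). Read depth is unknown. Among the lowest values, a shared step between replicates was seen in KO beige and in the C3H10T1/2 control, each with a ratio of 0.949, which covered 28.9% and 28.8% of those values.

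Tests used limma 3.58.1 in R 4.3.3 (empirical Bayes with a trend) on log2(FPKM + 1), for entries at 1 FPKM or more in 2 or more libraries of the fit. The 8 primary libraries were fitted together (11294 entries, 4 residual degrees of freedom) and the 4 C3H10T1/2 libraries apart (9981 entries, 2 residual degrees of freedom). P-values were adjusted over all entries tested with the Benjamini-Hochberg method, and 0.05 was the threshold. Differences carry their standard error, with 2 libraries per group. The tests were tried on simulated data first. Groups came from the titles, genotype and treatment labels. The members and lists were chosen with earlier results of these data known. The rule named, in each comparison, the called members up to the 30 largest, or the 6 of lowest p, with up to 4 genes per other list. Members called outside it (Adm, Bnip3l, Car9, Hif1a and P4ha2 in WT, Hif1a, Hk1, P4ha1 and Pfkm in KO, beige against white) and those named for a replicate gap, an overlap or a level were chosen after their values were seen. Alternatives were another pseudocount, filter, scaling, pooling of libraries, variance model, a replicate block, and each library left out.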

Additional observations from a re-analysis of the deposited data

Results flagged for a closer look

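Slc16a3, the gene of the lactate exporter MCT4, drew attention because its genotype difference pointed in opposite directions in beige and in white cultures. KO beige stood at 18.7 and 11.2 FPKM, both below the 19.98 and 20.7 of WT beige, while KO white stood at 5.50 and 8.96, both above the 2.65 and 1.20 of WT white. The beige difference was -0.46 ± 0.30 and the white one 1.51 ± 0.30 on the log2(FPKM + 1) scale. Without KO beige replicate 2 the beige difference was -0.12, and the white call was lost in 6 of 12 alternatives. The difference between them, -1.97 ± 0.42, was tested as an interaction and did not pass (limma adjusted p = 0.13). It passed in 1 alternative, with all 12 libraries in 1 fit (adjusted p = 0.0498), and the adjusted p reached 0.562 without the second replicates of KO beige and KO white.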

How the results depend on the processing

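The median member difference in WT beige against WT white (1.54) was 1.65 with median centring, 1.67 with a pseudocount of 0.1 FPKM, 1.46 with small RNA genes left out and 1.48 to 1.72 with 1 library left out. Centring and small RNA removal moved the median of all entries there from -0.10 to 0.01 and to -0.18. That of KO beige against KO white (1.08) was 0.94 to 1.37 with 1 library left out, and 1.60 without both second replicates. In KO beige against WT beige 1 member was called with all 12 libraries in 1 fit, and the median (-0.19) ranged from -0.34 to 0.033 (without KO beige replicate 2). In KO white against WT white 3 members were called with all 12 libraries, 0 with median centring, no filter or the pseudocount of 0.1, and 0 to 1 with 1 library left out, and the median (0.25) ranged from 0.11 to 0.45. In the interaction 1 member was called with all 12 libraries, and the median (-0.46) was -0.15 without both second replicates and -0.68 to -0.34 with 1 library left out. With ATF7 overexpression 1 member was called without a filter and 0 to 8 with 1 library left out, and the median (-0.33) ranged from -0.51 to -0.12. Where 1 library of a group was left, it was assumed to vary like the others. The cause of these shifts was not tested.

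Over all entries, KO white against WT white called 213, but 642 with all 12 libraries, 387 with quantile normalization, 122 with no filter and 54 with the pseudocount of 0.1. ATF7 overexpression called 149, but 22 with no filter, 91 without a variance trend and 88 with the replicate block. The interaction called 33, but 116 with all 12 libraries and 20 with the pseudocount of 0.1. KO beige against WT beige called 17, but 26 with all 12 libraries. Leaving out 1 library gave 23 to 277 in KO white, 17 to 138 in overexpression, 16 to 43 in the interaction and 5 to 20 in KO beige. The share of higher calls moved from 40.2% to 50.9% and 51.4% with quantile normalization and median centring in WT beige against white, from 67.1% to 50.4% and 52.8% in KO white against WT white (53.7% with the pseudocount of 0.1, and 32.0% and 30.4% without KO white replicate 1 and without replicate 2, where 25 and 23 entries were called), and from 28.9% to 45.2% with small RNA genes left out in overexpression.

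Whether equal replicate numbers in the titles pair the samples was not settled. Deviations of same-numbered libraries correlated between -0.13 and 0.12 across groups. Such weak correlations cannot decide whether those libraries share an origin or a batch. With the replicate block 36 members were called in WT and 33 in KO beige against white, 0 in KO beige against WT beige, 1 in KO white against WT white, 0 in the interaction and 3 with overexpression. KO beige against WT beige then called 27 of all entries. Each member stands at 1 locus, so summing over loci had nothing to change and was not run. With FPKM alone, depth sets no limit that could be computed.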

Other observations

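Of the 24 other hypoxia-induced genes, 23 reached 1 FPKM in both KO beige libraries. Of these, 17 were higher in replicate 1 and 6 in replicate 2, while 30.9% of all entries were higher in replicate 1. Their median difference was 0.18 on the log2(FPKM + 1) scale, against -0.10 over all entries. WT beige also had 17 higher in replicate 1 and 6 in replicate 2, with a median of 0.17. There, however, 53.8% of all entries were higher in replicate 1, and their median was 0.01. In KO beige 4 of the 23 were higher in replicate 1 by 0.5 or more, and none in WT beige. Entries that far apart in either direction made up 3.86% in KO beige and 1.12% in WT beige. The genes named next were chosen for the gap in KO beige. Ak4 was at 14.0 and 6.81 FPKM in replicates 1 and 2 and Hmox1, heme oxygenase, at 194 and 112, where WT beige had 14.3 and 12.2, and 235 and 179.9. Others ran the opposite way in KO beige, such as Stc1, stanniocalcin, at 9.89 and 12.7 FPKM and Angptl4, an inhibitor of lipoprotein lipase, at 159 and 182. In KO white 19 of 23 were higher in replicate 2, with a median of -0.15 for replicate 1 minus replicate 2. Of all entries 41.3% were higher in replicate 1 there, with a median of -0.03. The C3H10T1/2 control had 19 of 20 higher in replicate 1, with a median of 0.20, against 48.9% of all entries and a median of -0.003. With ATF7 overexpression 14 of 20 were higher in replicate 2, while 61.6% of entries were higher in replicate 1. WT white had 11 higher in each replicate. The glucose transporter gene Slc2a3, from another list, was at 3.31 and 0.784 FPKM in KO beige and at 4.21 and 3.25 in WT beige. Pyruvate dehydrogenase genes did not have this gap in KO beige: Pdhb was at 156 and 165, Dlat at 75.2 and 81.2 and Pdk2 at 33.6 and 38.2 FPKM.

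Gapdh, which closes the gap between triose phosphate and Pgk1 in glycolysis, was low in C3H10T1/2, at 12.7 and 8.25 FPKM in the control and at 3.73 and 7.14 with ATF7 overexpression, where Aldoa was at 1067 to 1146. In WT beige it was at 142 and 117 FPKM. The gene has many processed copies, and no source used here says how shared reads were assigned.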
